A study of Drosophila melanogaster with 2 samples.

Results

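Pcl peaks at 4 patterning genes of the fruit fly Drosophila melanogaster, hb, hh, fkh and tll, are described from one chromatin immunoprecipitation sequencing (ChIP-seq) peak list. The members were the peaks of arm 3R whose centre lay in 1 of 4 windows of build BDGP5, the Release 5 genome: 4490000 to 4550000 for hb, 24380000 to 24440000 for fkh, 26650000 to 26710000 for tll and 18920000 to 19000000 for hh. These windows of 60 kb (80 kb for hh) held 18 of the 2457 peaks of the list, or 2.28% of the 791 peaks on 3R. The hb window held 2 of them, the hh window 5, the fkh window 4 and the tll window 7. Windows were chosen by position, with earlier results of this list known, and not by the score or width of their peaks.

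The peaks came from whole embryos collected 0 to 8 h after egg laying, crosslinked with 1.8% formaldehyde and precipitated with the antibody KW4-Pcl-D2 against Polycomb-like (Pcl). The growth protocol in the labels names iso1 (y; bw cn sp) flies or transgenic flies, and does not say which gave these embryos. One sample, whose title combines replicates 1, 2 and 3, is represented by the list, and an input sample of the same stage served as the control. Values therefore carry no replicate error, no test between conditions was possible, and the read depth behind a peak is unknown. A whole embryo mixes cells in which a gene is on with cells in which it is off, and a peak does not say in which of them Pcl was bound.

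Pcl associates with Polycomb repressive complex PRC2, which methylates lysine 27 of histone H3. Polycomb-group proteins keep developmental genes silent in cells where early patterning has left those genes off. The genes named here act at different steps of that patterning. Hunchback, encoded by hb, is a zinc-finger transcription factor of the gap class. Tailless, encoded by tll, is an orphan nuclear receptor that acts at both ends of the embryo. Hedgehog, encoded by hh, is a secreted signal of the segment-polarity class. Fork head, encoded by fkh, is a FoxA transcription factor needed in the gut and the salivary glands.

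The gene names belong to the windows, and no peak was assigned to a gene, because a gene annotation of this build was not used here. Other genes may share each window. In the RefSeq gene table of Release 6, used only for names and order, the nearest protein-coding neighbours are CG44227 and Cks85A for hb, CG31457 and unk for hh, mIF2 and Noa36 for fkh, and CG15544 and Cpr100A for tll.

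The 4 windows differed in number, strength and layout of their peaks. The fkh window held 1 of the strongest and widest peaks of the whole list with 3 weaker ones, the hh window held a strong peak within a group of 4, the tll window held the most peaks but mostly weak and narrow ones, and the hb window held only 2 peaks of middle rank. Strength is given by the authors' deposited peak score, the peak caller's own value, whose scale is not stated in the file. It was compared only within this list, by rank, by cut-offs, by medians and by matching peaks of near score. Rank 1 is the highest of 2457. The lowest score in the list is 50.01.

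**Figure D1:**
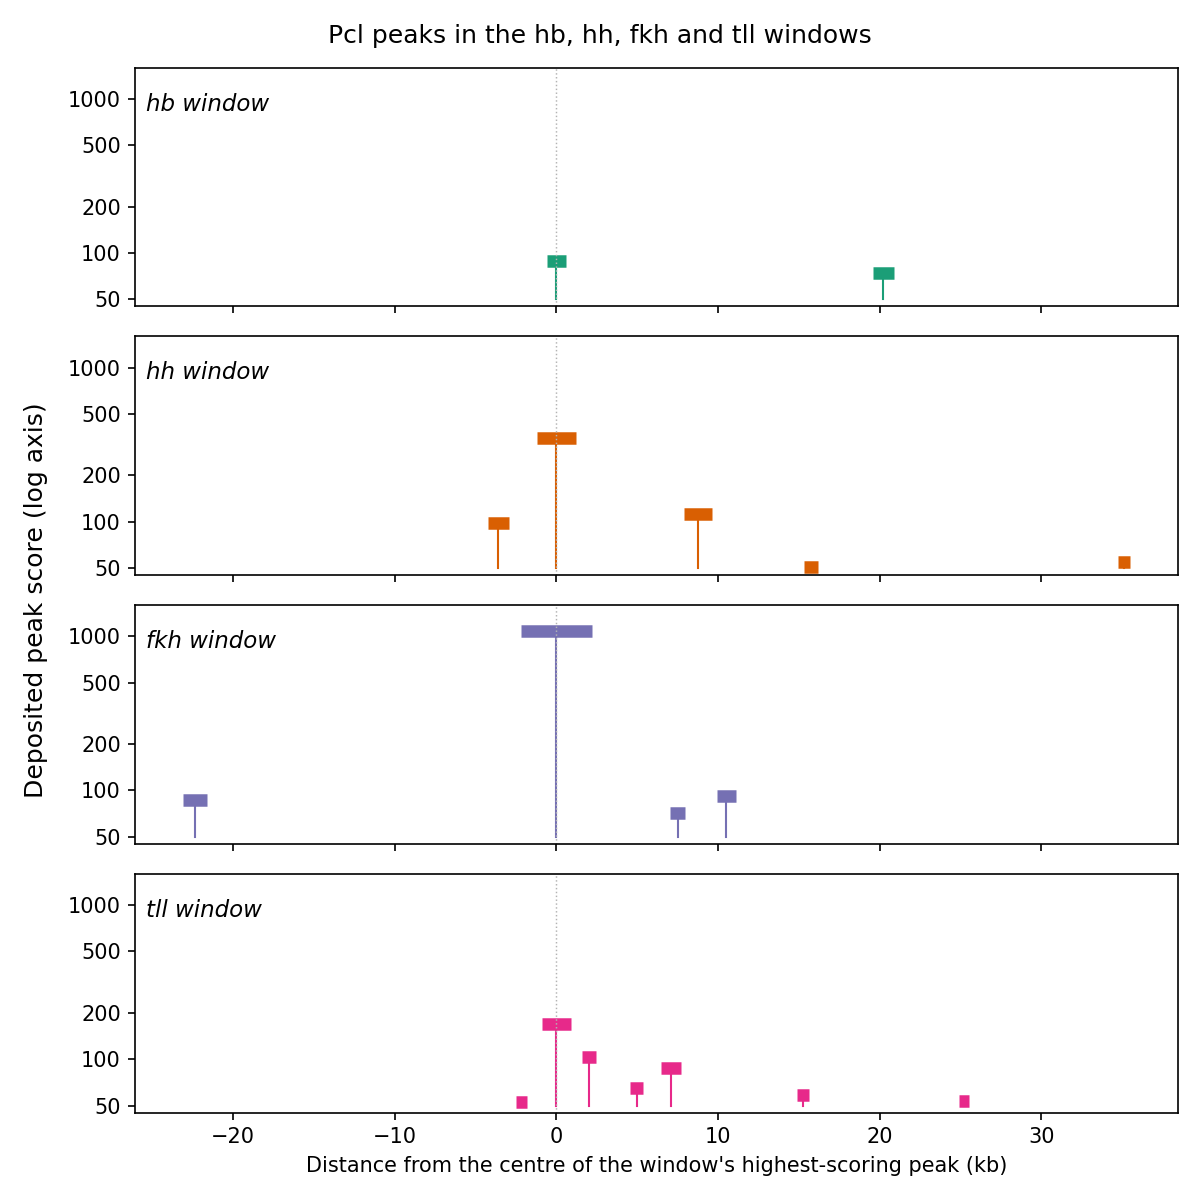
Pcl peaks of the hb, hh, fkh and tll windows, 1 panel a window. Each horizontal bar is 1 peak drawn to its true width, the x axis gives the distance in kb from the centre of the highest-scoring peak of the window, and the y axis gives the deposited score on a log axis. The fkh window has 1 bar at 1079 far above its others, whereas the 7 bars of the tll window lie between 52.5 and 170.

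The hb window held the fewest peaks and the lowest-ranking leading peak. The first peak, at 4497555 to 4498767, had a score of 88.7 (rank 855) and a width of 1213 bp. The second, at 4517752 to 4519024, had a score of 74.2 (rank 1210) and a width of 1273 bp. The higher score thus went with the slightly narrower peak, and hb was the 1 window in which the highest-scoring peak was not also the widest.

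The hb peaks were separated by a gap of 19.0 kb, a length reached by 40.1% of the gaps between neighbouring peaks of 3R, and each stood alone when peaks with gaps under 10 kb were joined into clusters. On the lower-coordinate side the next peak, of score 110.95, lay 303 kb away, a gap reached by 1.14% of those of 3R. On the other side the next peak, of score 69.5, lay 60.9 kb away, a gap reached by 17.5% of them. Together the hb peaks covered 4.14% of the window.

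The tll window held the densest group, with 7 peaks in 28.1 kb. All 7 formed 1 cluster under the 10 kb rule, from 26676437 to 26704486, and this cluster ranked ninth by number of peaks among the 396 clusters of 3R. The leading peak, at 26678046 to 26679804, had a score of 170 (rank 237) and a width of 1759 bp, the widest of the window. The other 6 were weaker and trailed to the higher-coordinate side, with 1 exception on the lower side.

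In map order, the tll peaks had scores of 52.5, 170, 103, 65.4, 87.3, 58.5 and 53.9. Their widths were 687, 1759, 872, 755, 1284, 732 and 619 bp. The 5 peaks nearest to the lower end of the window were separated by gaps of 922, 725, 2109 and 1112 bp, and the last 2 stood off by 7.16 and 9.32 kb. The outermost peaks were thus the weakest: the first and the last 2 lay below 60, close to the lowest score of the list.

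Short gaps make the number of tll peaks depend on whether close neighbours are counted apart. How the peak caller divided the signal was not tested. With gaps under 1 kb joined, the first 3 peaks became 1 region of 4965 bp at 26676437 to 26681401. That region ranked 26 by width among the 2160 joined regions of the list and 202 by score. No other member was joined to a neighbour by this rule, and the tll window then held 5 peaks, as many as the hh window.

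The hh window held a strong peak flanked by weaker ones. The leading peak, at 18957486 to 18959859, had a score of 352 (rank 88 in the list and 41 on 3R) and a width of 2374 bp (rank 52 by width). The peak before it, at 18954423 to 18955735, scored 98.3 with a width of 1313 bp, and the gap between them was 1750 bp. The peak after it, at 18966596 to 18968322, scored 112 with a width of 1727 bp and lay 6.74 kb away.

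The remaining hh peaks were close to the lowest score of the list. The fourth, at 18974027 to 18974879, scored 50.7 with a width of 853 bp, and the fifth, at 18993448 to 18994176, scored 55.0 with a width of 729 bp. The first 4 peaks formed a cluster of 20.5 kb, which ranked 21 of 396 on 3R by highest score. By number of peaks it also ranked 21, a rank shared by all 3R clusters of 4 peaks. The fifth stood 18.6 kb beyond them. On the lower side no peak occurred for 102 kb, a gap reached by 8.99% of the gaps of 3R.

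Beyond the hh window on the higher side, the next peak lay 19.4 kb from the last hh peak. This gap was reached by 39.7% of the gaps of 3R. That next peak, at 19013580 to 19015052, had a score of 142 (rank 352). Another, also within 20 kb of the window edge, lay at 19017426 to 19018598 with a score of 111 (rank 560). Both scored higher than the fourth and last hh peaks. Around the other windows, peaks within 20 kb of the edge numbered 0 for hb, 1 for fkh (score 50.1) and 2 for tll (scores 70.6 and 51.3).

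The fkh window was dominated by 1 peak. It lay at 24407918 to 24412282, had a score of 1079 (rank 13 in the list and 6 on 3R) and was 4365 bp wide, the third widest peak of the list and the second widest on 3R. It made up 54.6% of the sequence covered by the 4 fkh peaks, against 26.2% for the leading peak of tll, 33.9% for that of hh and 48.8% for that of hb. Its cluster, from 24407918 to 24421221, ranked second by highest score among the 396 clusters of 3R. By number of peaks it ranked only 34, a rank shared by all 3R clusters of 3 peaks.

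The other fkh peaks were of middle rank. The first, at 24386983 to 24388515, scored 86.3 with a width of 1533 bp and lay 19.4 kb before the leading peak. The third, at 24417159 to 24418067, scored 71.3 with a width of 909 bp. The fourth, at 24420037 to 24421221, scored 91.7 with a width of 1185 bp. The scores of these 3 peaks lay within the range of those of hh and tll below their leading peaks. Beyond the fourth, no peak occurred for 155 kb, a gap reached by 4.30% of the gaps of 3R.

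Peak number was set beside tiles of equal length along 3R, as a description of this 1 list. Of the 462 tiles of 60 kb, 37.9% held no peak, and the median was 1 peak. At least 2 peaks, the hb number, occurred in 38.3% of these tiles, at least 4, the fkh number, in 12.6%, and at least 7, the tll number, in 4.55%. Of the 346 tiles of 80 kb, 10.1% held at least 5 peaks, the hh number. By these shares tll came first and hb last, whereas hh and fkh could not be ordered: with tiles shifted by 0.5 of their length the share was 13.6% for hh and 11.3% for fkh.

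**Figure D2:**
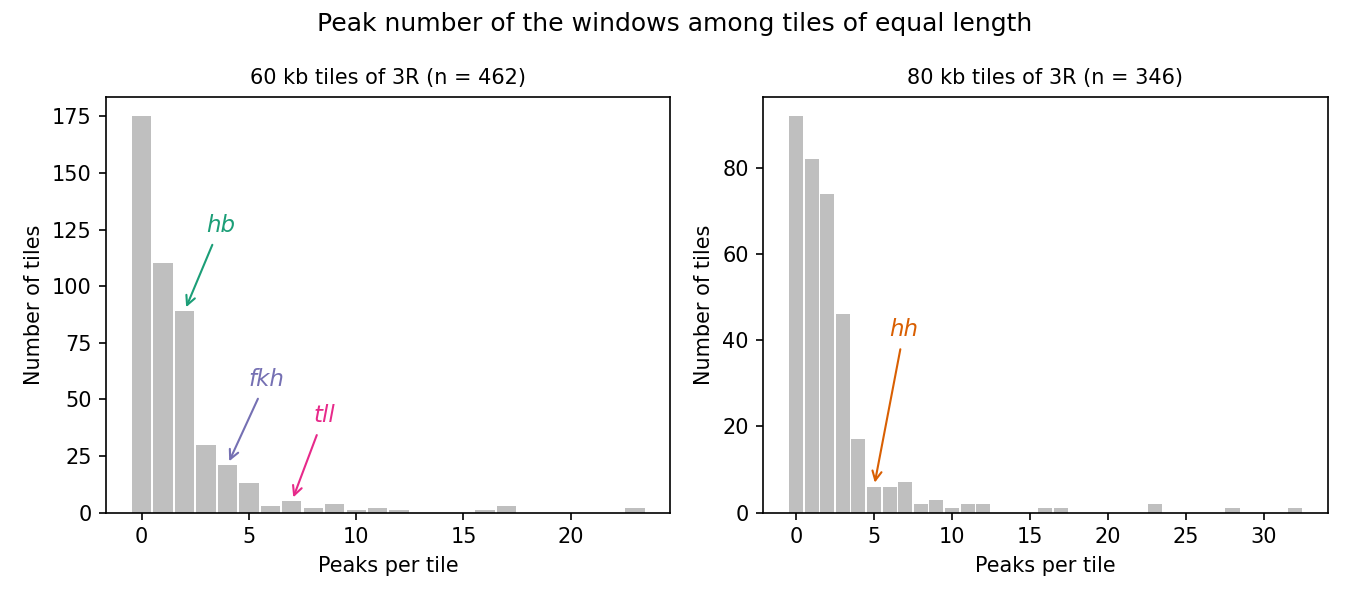
Number of 3R tiles (y axis) by the number of Pcl peaks in them (x axis), for tiles of 60 kb on the left and 80 kb on the right. Arrows mark the peak number of the hb window (2), the fkh window (4), the tll window (7) and the hh window (5).

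The order changed when the covered length or the strongest peak was counted in place of peak number. Peaks covered 13.3% of the fkh window, 11.2% of the tll window and 8.75% of the hh window, each above the 4.14% of hb. Tiles with at least as much coverage made up 3.90% for fkh, 5.63% for tll, 6.65% for hh and 18.8% for hb. A peak at least as strong as the leading one was present in 0.649% of tiles for fkh (3 of 462), 7.23% for hh, 9.52% for tll and 26.6% for hb. Thus, for the peaks as deposited, tll led by number of peaks, fkh led by coverage and by strongest peak, and hb came last by each measure. The lead of fkh in coverage was lost when gaps under 1 kb were joined, which gave 13.9% for tll and 13.3% for fkh.

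By score, the members resembled the list as a whole. Of the 18 peaks, 5 scored at least 100 (27.8%), against 27.3% of all peaks, and 2 scored at least 200, against 7.45% of all peaks. In the top 10% of the list by score were 3 members, the leading peaks of fkh, hh and tll, and the background of that rule is 10% by construction. Above the median score of the list lay 11 of 18, against 50% of all peaks. The median score of the members was 86.8, against 73.6 for the list and 73.8 for the 773 peaks of 3R outside the windows.

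By width, more of the members lay high in the list. The median width was 1199 bp for the members, 830 bp for the list and 841 bp for 3R outside the windows. At or above the upper quartile of all widths, 1052 bp, were 10 of the 18 members, against 25% of all peaks: both hb peaks, 3 of 5 at hh, 3 of 4 at fkh and 2 of 7 at tll. Above the median width of the list were 13 members, against 49.9% of all peaks, and the 5 below it were the last hh peak and 4 of the tll peaks. With 18 peaks the median itself is known loosely, with a 95% exact interval from the ordered values of 755 to 1533 bp that treats neighbouring peaks as independent. That interval included the median widths of the list and of 3R outside the windows.

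**Figure D3:**
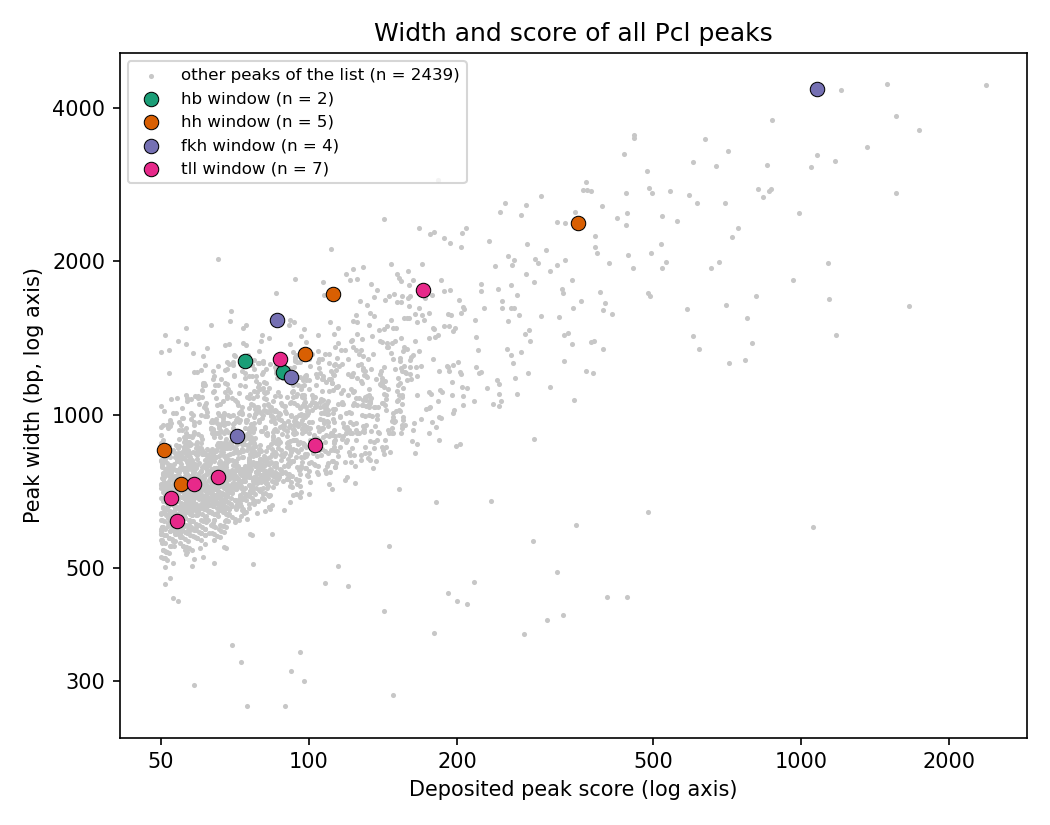
Width in bp (y axis, log) against deposited score (x axis, log) of all 2457 Pcl peaks. Grey points are peaks outside the windows and coloured points are the 18 members, most of which at hb, hh and fkh lie in the upper part of the grey cloud at their score.

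Since wide peaks tend to have high scores, each member was also compared with the 20 other peaks of the chromosome arms nearest to it in score. The ratio of its width to their median width was above 1 for 13 of 18 members, against 50.2% of all arm peaks, and the median ratio was 1.28, against 1.00 for all arm peaks and 1.01 for 3R outside the windows. The 95% exact interval of the median ratio over the 18 members was 0.98 to 1.45, which included 1. This interval treats neighbouring peaks as independent, although the members fell into 7 clusters, and it is no test of the ratio. The windows did not share this equally. The ratio was above 1 for both hb peaks (1.29 and 1.61), for all 5 hh peaks (1.07 to 1.77) and for all 4 fkh peaks (1.15 to 1.68). At tll it was above 1 for 2 of 7 peaks, the leading one (1.28) and the wide peak of 1284 bp (1.45), and between 0.90 and 0.98 for the other 5.

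The peaks named next are the extremes, each wider than all 20 peaks nearest to it in score. For the members not named here, the narrower peaks among those 20 numbered from 5 (the last tll peak) to 18 (both hb peaks, among others). The third hh peak, 1727 bp wide, was wider than all 20 peaks nearest in score, whose widths ran from 714 to 1439 bp. The first fkh peak, 1533 bp wide, likewise exceeded all 20, which ran from 748 to 1261 bp. The fifth tll peak, 1284 bp wide, exceeded its 20, which ran from 754 to 1110 bp. The leading fkh peak, 4365 bp wide, was also wider than its 20 nearest, but these spanned scores of 769 to 1361, so that the match in score was coarse.

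**Figure D4:**
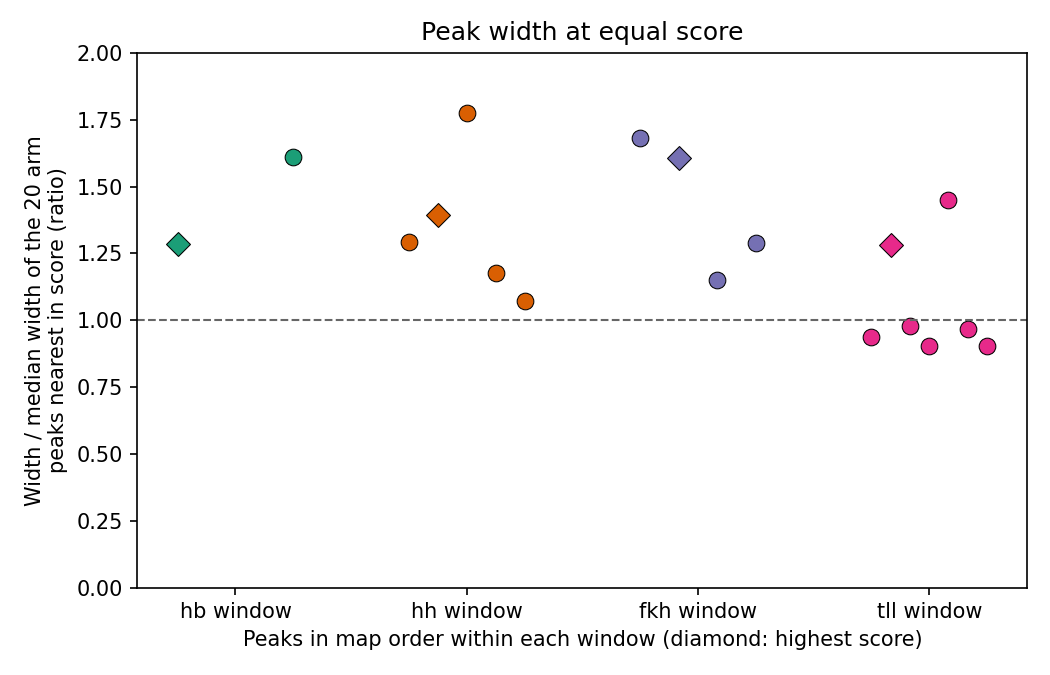
Ratio of the width of each member to the median width of the 20 arm peaks nearest in score (y axis), by window and in map order (x axis). Diamonds are the highest-scoring peaks and the dashed line is a ratio of 1. All peaks of hb, hh and fkh lie above the line, and 5 of the 7 tll peaks lie below it.

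The tll window, with the lowest ratios, was also the window with the shortest gaps. The median gap between its neighbouring peaks was 1.61 kb, against 4.88 kb at fkh, 6.22 kb at hh and the single gap of 19.0 kb at hb. When gaps under 1 kb were joined throughout the list, the joined tll region of 4965 bp had a ratio of 3.15, and 2 of the then 5 tll peaks lay above 1. By the same step the ratio of the leading hh peak went from 1.39 to 0.84, below 1, as the median width of its 20 nearest peaks went from 1702 to 2823.5 bp. That of the leading fkh peak went from 1.61 to 1.12. A ratio above 1 was thus found for all hh peaks as deposited and for 4 of 5 after joining. The last hh peak was only just above 1 in both, at 1.07 and 1.02.

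Higher scores mostly went with greater widths within the windows that held at least 4 peaks, though in none of them were the orders identical. Spearman's rho was 0.93 over the 7 tll peaks, 0.90 over the 5 hh peaks and 0.80 over the 4 fkh peaks, against 0.67 over the list. These are descriptions of a few peaks that share 1 library and 1 peak caller. In each of these 3 windows the leading peak was the second in map order and also the widest.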

How the data were processed

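The file used is a peak list for Pcl in embryos of 0 to 8 h; the input sample was not analysed here. Per the submitters' processing notes Bowtie (no version named) and build BDGP5 were used, and per the file headers peaks were called with MACS. The deposited score is the authors' own value per peak, on a scale not stated. No source used here says how replicates 1, 2 and 3 were combined, and depth is unknown.

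Starts were made 1-based. Membership followed the peak centre. Percentages of tiles used non-overlapping tiles from the first base of 3R to its last peak, the windows' own stretches included, and clusters joined gaps under 10 kb. Tied clusters share the best rank. Ranks are over the whole list, including 41 peaks outside X, 4 and the large autosomal arms, whereas equal-score widths left those 41 out. Intervals cover counting error only. No p-value was computed. Members, lists and measures were chosen with earlier results of these data known. Named in full are peaks in the top 10% by score and the highest and widest peak of each window; the other members were added as there are only 18. Functions were checked on 50 simulated lists. Planned promoter motifs and other patterning genes were not evaluated, since no sequence or Release 5 annotation was used here. Python 3.11.15, pandas 2.3.3 and scipy 1.17.1 were used. Alternatives changed the score minimum, joining, membership, window size, tiles, cluster gap and reference peaks.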

Additional observations from a re-analysis of the deposited data

How the results depend on the processing

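The count of 18 peaks depends on the authors' score cut-off. It became 11 when the lower-scoring 0.5 of the list was left out and 5 when scores under 100 were, and in the latter case hb held 0, hh 2, fkh 1 and tll 2, coverage of the 4 windows fell from 9.30% to 4.27% and the median width became 1759 bp. The lead of tll in peak number was lost in both: hb held 2 peaks and each of the other windows 3 in the former list. In windows shortened by 10 kb on each side hb kept 1 peak, and 14 remained in all; in windows widened by 20 kb there were 23. The 7 clusters became 16 with a gap of 1 kb and 11 with a gap of 5 kb, by construction of the rule. The rank of the leading fkh peak was 13 under each of the 6 alternatives. Only joining could have changed this rank. Leaving out weaker peaks, or changing windows or membership, keeps it by construction. The median width ratio of 1.28 ranged from 1.24 to 1.30, including 3 alternatives chosen after seeing the data (1.28 without the leading fkh peak, 1.27 against peaks of 3R only, 1.24 after joining). The recomputed shares of tiles and the median score percentile stayed within their exact intervals, although shifted tiles exchanged the order of hh and fkh. No interval was computed for the median width percentile of the members. It was 83.5 in the list and 79.9 against 3R outside the windows. Among values of single windows, 13 moved by over 1.5 times, mostly under the score minimums. No paired analysis was possible because 1 list stands for all replicates, and for the same reason none could be left out in turn. Sites under the cut-off are missing from the list, so a stretch without a peak is not shown to lack Pcl.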
